A study of Mus musculus with 4 samples.

Results

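Hox genes encode homeodomain transcription factors that give cells their position along the head to tail axis. They lie in 4 clusters (a, b, c and d), and genes of the same number in different clusters form a paralog group. They were taken as the array rows whose gene name in the deposited tables is Hox, a cluster letter and a number, a rule that uses no measured value. It found 27 rows of 24 genes among 35411 rows of 20735 named genes. Of these, 21 genes had 1 row and 3 genes (Hoxa7, Hoxb1 and Hoxd10) had 2 rows, where a row is a probe set named after 1 transcript record. The genes were 11 of cluster a on chromosome 6, 6 of cluster b on chromosome 11, 3 of cluster c on chromosome 15 and 4 of cluster d on chromosome 2; the other Hox genes were not analysed here.

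The arrays hold 4 groups of mouse CD4+ T cells of FVB/N background, with 1 single-colour array of total RNA for each. Naive cells (CD4+ with high CD62L, from spleen) came from wild type mice and from mice with miR-7 deficiency. Cells of both genotypes were also cultured for 48 hours with antibodies to CD3 and CD28 and with IL-2, and are called labelled activated below. Each sample is labelled as a representative one of 3 biological replicates. The sources used here do not say how the deficiency was made; the deposited tables call these samples KD, an abbreviation they do not spell out. Where 4 values are said to be in array order, the order is wild type naive, miR-7 deficient naive, wild type labelled activated and miR-7 deficient labelled activated. With 1 array per group no difference below has a replicate check, no p-value is given, and the number of arrays limits the precision.

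Paralog groups with low numbers are used in the hindbrain and neck, and those with high numbers in the lower trunk, limbs and tail. In the mouse embryo the forebrain is formed without Hox expression. In blood, Hox genes of clusters a and b, Hoxa9 among them, are known from stem and progenitor cells and are turned down as these mature. Hox proteins bind DNA with partners of the Pbx and Meis families, Polycomb proteins hold silent Hox clusters closed, and Trithorax proteins keep active ones open.

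MicroRNAs bind messengers through their seed, bases 2 to 8, shown in capitals. The mature miR-7 sequences are those the genotypes were meant to differ in, and the miR-10 and miR-196 sequences are of microRNAs whose genes lie inside Hox clusters; all were read from RefSeq (GRCm38.p6).
mmu-miR-7a-5p: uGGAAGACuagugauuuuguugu
mmu-miR-7b-5p: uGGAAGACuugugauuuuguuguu
mmu-miR-10a-5p: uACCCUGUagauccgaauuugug
mmu-miR-10b-5p: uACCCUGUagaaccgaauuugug
mmu-miR-196a-5p: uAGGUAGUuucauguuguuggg
mmu-miR-196b-5p: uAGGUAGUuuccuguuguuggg
Both miR-7 sequences share 1 seed, as do both miR-10 and both miR-196 sequences, and these seeds differ from each other. The arrays were read for messengers, and no level of these microRNAs is given.

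A floor was set on each array at the 95th percentile of 667 rows of chemosensory receptors (619 genes for smell, pheromone, trace amine and taste receptors), which are used mainly in sensory cells. These rows are called receptor rows below. The floor lay at an intensity of 984 on the wild type naive array, 985 on the miR-7 deficient naive array, 720 on the wild type array labelled activated and 604 on the miR-7 deficient array labelled activated. A gene with 2 rows was represented by the row with the higher mean.

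Cell type markers went against the labels of 2 arrays. Of 7 measured T cell markers, 6, 7, 1 and 1 stood above the floor in array order, with summed intensities of 15429, 17801, 3093 and 2948. Of 6 neuronal markers, 0, 0, 5 and 6 did (summed intensities of 1351, 1268, 30790 and 43366). All 5 oligodendrocyte markers stood above the floor on both arrays labelled activated and 0 on the naive arrays. Of 5 astrocyte markers 1, Aqp4, was above the floor on the naive arrays and all 5 were on the arrays labelled activated. Of 4 B cell markers, 1, 2, 0 and 0 were above it in array order. The part of these cells in the Hox values was not tested, and fewer cells of a type and less RNA per cell cannot be told apart.

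Most Hox genes lay within the range of the receptor rows on every array. The genes above the floor were Hoxd10 and Hoxa9 on all 4 arrays, and Hoxa6 on the miR-7 deficient array labelled activated. That makes 2, 2, 2 and 3 of 24 genes in array order, beside 13.7%, 14.7%, 22.2% and 25.8% of all 20735 genes. The other 24 rows stood above the floor on no array. The median Hox row read 161, 185, 95.9 and 91.0, in array order, and the median receptor row 165, 138, 117 and 110.

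**Figure D1:**
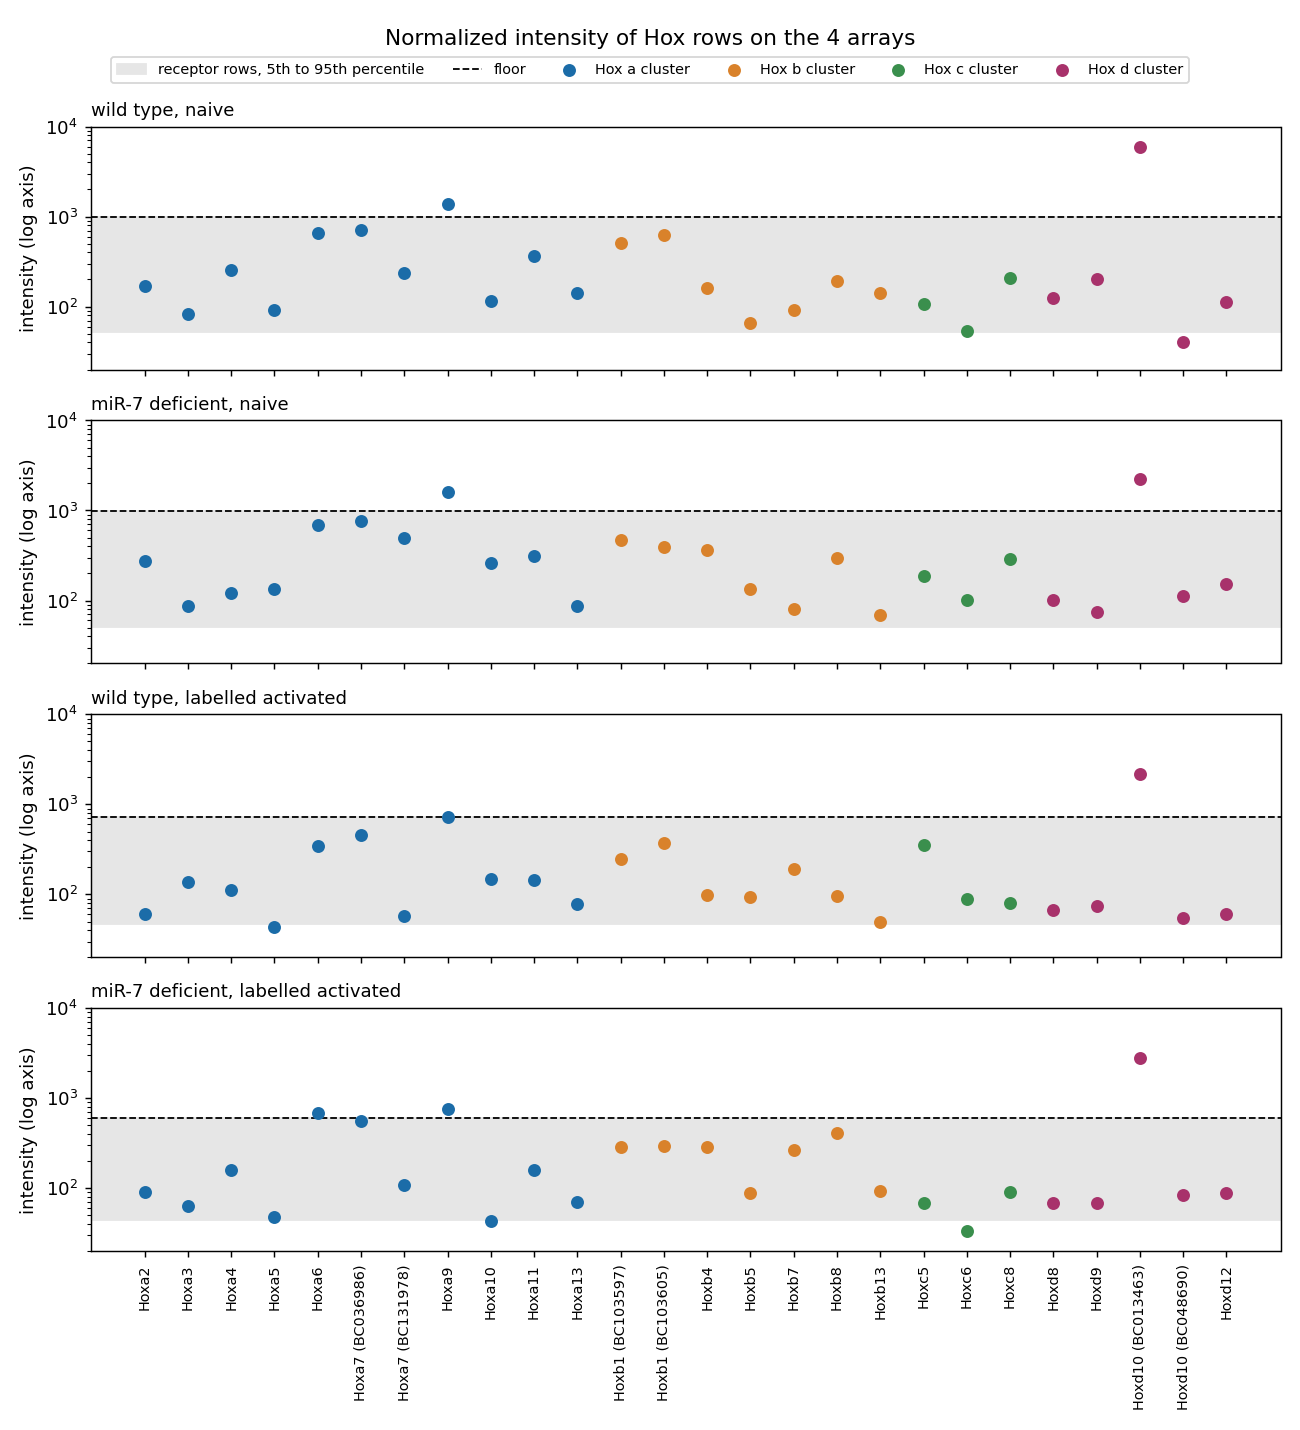
Normalized intensity (log axis) of 26 Hox rows on the 4 arrays, ordered by cluster and paralog group, with the floor as a dashed line and the middle range of the 667 receptor rows in grey; 1 point is 1 row on 1 array. The Hoxd10 row BC013463 and the Hoxa9 row stand above the floor in each panel, with Hoxa9 at 730 against a floor of 720 on the wild type array labelled activated.

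Hoxd10, known for patterning limbs and lumbar motor neurons, had the highest of all Hox readings. Its row BC013463 read 5933 on the wild type naive array, 2258 on the miR-7 deficient naive array, 2172 on the wild type array labelled activated and 2801 on the miR-7 deficient array labelled activated. The wild type naive array was thus high, and the other 3 arrays lay within 1.29-fold of each other. On all rows of an array this reading ranked 745th, 1798th, 2154th and 1639th in the same order. Of the 667 receptor rows 0 were higher on the wild type naive array, 3 on the miR-7 deficient naive array, 1 on the wild type array labelled activated and 0 on the miR-7 deficient array labelled activated.

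The other Hoxd10 row, BC048690, gave no such signal. It read 40.6, 112, 54.5 and 83.7 on the same arrays, below the median receptor row on each of them. Since the dim row was below the floor, only the height of the bright row over the floor can be given, which was 2.59, 1.20, 1.59 and 2.21 on the log2 scale, in array order. Both rows are annotated as complete coding sequences of Hoxd10 and to the same Ensembl transcript. In the coordinates of the files, whose genome build is not named, the annotated end of the bright row lies 500 bases beyond that of the dim row in the direction of transcription, and its start 22 bases beyond. The probe sequences of both rows were not used here, so which of them reports the Hoxd10 messenger was not tested.

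A gene with 1 row above the floor and 1 below was common on these arrays. Among genes with 2 rows other than the Hox genes, 693, 765, 1283 and 1522 had a row above the floor, in array order, and in 73.2%, 68.2%, 69.1% and 67.3% of these the other row was below it. Of 467 such genes with a row above the floor on all 4 arrays, 213 (45.6%) had their other row above it on no array, as Hoxd10 had, and 138 (29.6%) had both rows above it on all 4. By side of the floor, Hoxd10 thus belonged to the more frequent of these patterns. The size of the gap between its 2 rows was rare, however. Of 4880 other genes with 2 rows, 3, 84, 31 and 50 had a gap as large without a floor, in array order. Of the 467 genes, 2 had a gap at least as large as that of Hoxd10 on every array. The dim Hoxd10 row lay below the floor, so the size of its gap is imprecise.

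The bright Hoxd10 row also stood alone in its neighbourhood. Hoxd9, a neighbour in the cluster, read 202, 74.8, 75.2 and 68.2, in array order, and Hoxd8 read 126, 100.2, 66.8 and 69.4. Hoxd12, a gene of digit formation, read 114, 151, 61.2 and 89.8. These 3 genes lay below the floor on all arrays. An unnamed row that starts 424 bases beyond the bright Hoxd10 row read 280, 135, 173 and 163. Together with it, 9 rows, looked up once the files had been seen, that are no Hox genes by the rule lay within the spans of the 4 clusters, and 0 of the 9 stood above the floor on any array (intensities of 36.7 to 905). The highest was a row of Hoxa11as, an antisense transcript of Hoxa11, at 639, 905, 610 and 464.

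Hoxa9, which maintains blood progenitors, read 1365 on the wild type naive array, 1616 on the miR-7 deficient naive array, 730 on the wild type array labelled activated and 766 on the miR-7 deficient array labelled activated. Both naive arrays were higher than both arrays labelled activated. The reading of 730 stood barely above its floor of 720, and 26, 15, 33 and 26 of the receptor rows were higher than Hoxa9 on the arrays in this order. Hoxa9 had 1 row, so no second row checks it, and with the floor at the 99th percentile of the receptor rows it stood above the floor on no array.

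Of its neighbours in cluster a, Hoxa6 and the brighter Hoxa7 row came nearest to the floor, at log2 distances of -1.07 to 0.18. Hoxa7, expressed in the trunk and in early blood cells, read 717, 771, 456 and 557 in array order from its row BC036986. Hoxa6 read 665, 692, 342 and 684, so the miR-7 deficient array labelled activated was its only array above the floor. Hoxa6 and this Hoxa7 row were thus brighter than most receptor rows on every array, at percentiles of 87.6 to 95.5 of these rows. Hoxa10, of the uterus and progenitor cells, read 116, 260, 150 and 43.4, and Hoxa11, of the kidney and forelimb, 365, 316, 143 and 160, both below the floor throughout.

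Both rows of Hoxa7 and both of Hoxb1 lay below every floor, so agreement on a signal above it could not be read. The second Hoxa7 row, BC131978, read 237, 501, 57.2 and 108, in array order. It was the dimmer Hoxa7 row on each array. Hoxb1, of hindbrain segmentation, read 619, 398, 373 and 296 from the row BC103605 and 505, 474, 247 and 290 from BC103597.

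By position, the genes above the floor were too few to tell the paralog groups apart. Of 4 anterior genes (paralog groups 1 to 3) 0 stood above the floor on any array. Of 12 central genes (groups 4 to 8) 1 did, and of 8 posterior genes (groups 9 to 13) 2. Counted as rows, 3 of 27 Hox rows (11.1%) stood above the floor on any array, beside 24.5% of all rows. The share over all genes on any array is not given here. With the floor at the 75th percentile of the receptor rows, 1 anterior gene (Hoxb1) stood above it on all 4 arrays. By cluster, the genes above the floor on any array were 2 of 11 in a, 0 of 6 in b, 0 of 3 in c and 1 of 4 in d. In paralog group 10, Hoxd10 was above the floor and Hoxa10 was not, and in group 9 Hoxa9 was above and Hoxd9 was not. In group 6, Hoxc6, a gene of the thoracic trunk, read 53.9, 100.1, 89.2 and 33.2, in array order, and Hoxa6 was brighter on each array.

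The other anterior and posterior genes described here lay below every floor. Hoxa2, of the hindbrain and the second pharyngeal arch, read 171, 273, 60.4 and 90.8, in array order. Hoxa3, which the thymus needs to form, read 82.6, 86.8, 138 and 63.8. On the arrays that carried neuronal markers, Hoxa2 was dimmer than on both naive arrays, and Hoxa3 was above both of them in the wild type and below both in the miR-7 deficient sample. At the posterior end Hoxa13, of limb and hindgut, read 142, 87.8, 77.4 and 69.7, and Hoxb13, of tail and prostate, 141, 69.5, 48.9 and 92.5.

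The central genes of clusters b and c were also below the floor, and some varied widely between arrays. Hoxb4, known for the expansion of blood stem cells, read 161, 363, 98.3 and 288, in array order. Hoxb8, a gene of myeloid progenitors, read 193, 296, 95.9 and 411. In both, each miR-7 deficient array was higher than the wild type array of the same label. Hoxb7 read 91.6, 80.0, 192 and 265, higher on both arrays labelled activated, and Hoxb5 65.1, 134, 94.4 and 88.7. Hoxc5 read 107, 185, 353 and 68.4, with the wild type array labelled activated standing out, and Hoxc8, a gene of brachial motor neurons, 208, 290, 80.0 and 91.0. Hoxa4 read 256, 121, 111 and 159, and Hoxa5, needed for the lung, 92.4, 135, 43.5 and 48.6.

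**Figure D2:**
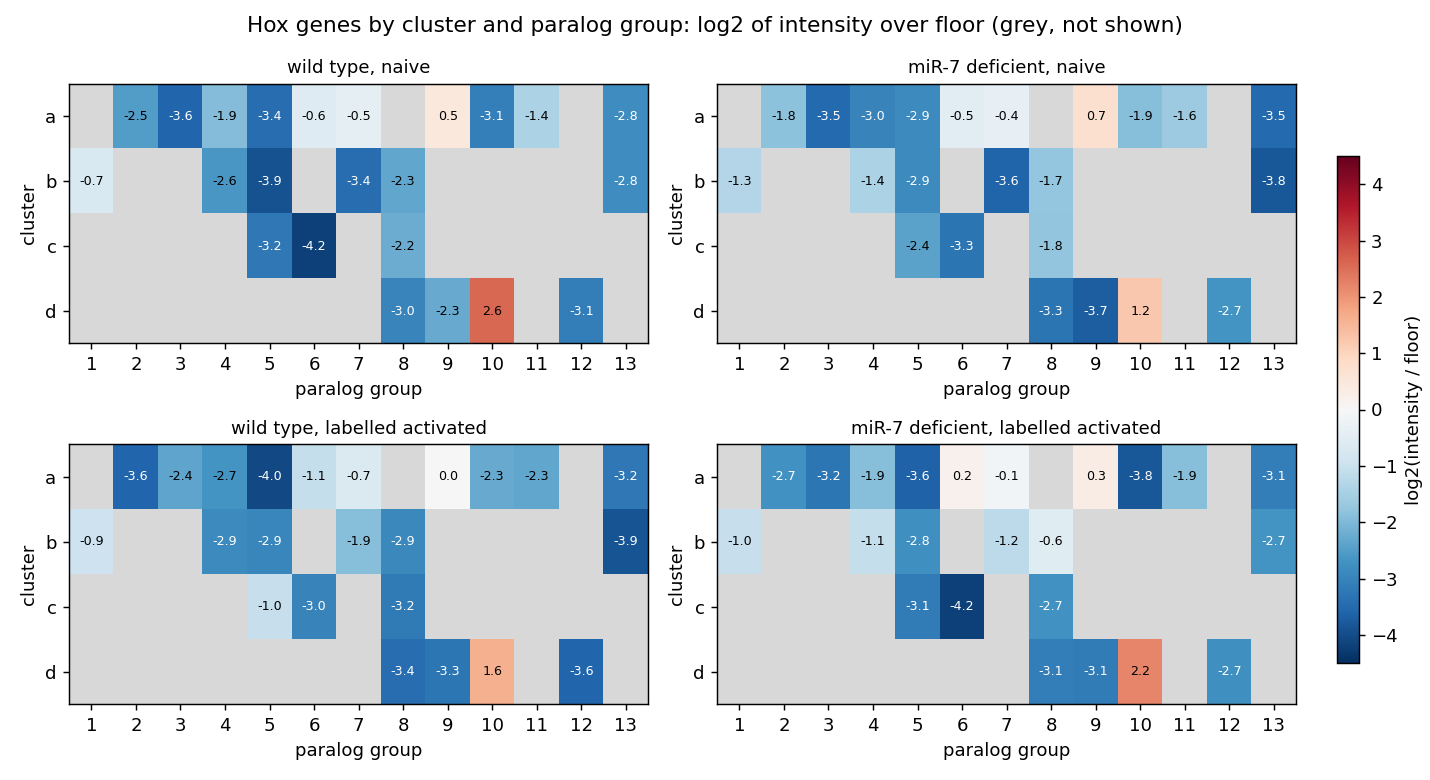
Log2 of the intensity over the floor for 23 Hox genes, by cluster (vertical) and paralog group (horizontal), in 1 grid per array; red lies above the floor, blue below, and grey places are not shown. Red cells at a9 and d10 recur in each grid (a9 is close to white on the wild type array labelled activated), while cells of the same paralog group in other clusters are blue.

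Row by row, the order of the Hox signals was kept in part between arrays. Spearman's rho across the 27 Hox rows was 0.74 between the naive arrays, beside 0.72 across the 667 receptor rows. Against the wild type array labelled activated it was 0.53, 0.61 and 0.59 for the wild type naive, miR-7 deficient naive and miR-7 deficient labelled activated arrays, beside 0.66, 0.69 and 0.69 for receptor rows. Order was thus kept less well there than among receptor rows, and between the naive arrays and the miR-7 deficient array labelled activated rho was 0.78 and 0.73, beside 0.69 and 0.69. Pearson's r on the log2 scale was 0.76 to 0.86 over all pairs, 0.68 to 0.78 without the bright Hoxd10 row, and 0.78 to 0.81 for receptor rows. Rows share the array and their probes and are no independent replicates. Rows above the floor on all 4 arrays were 2 of 27 Hox rows (7.41%), 25 of 667 receptor rows (3.75%) and 7.57% of all rows. Of the 25 receptor rows, 0 reached the lowest Hoxd10 reading of 2172 on every array.

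**Figure D3:**
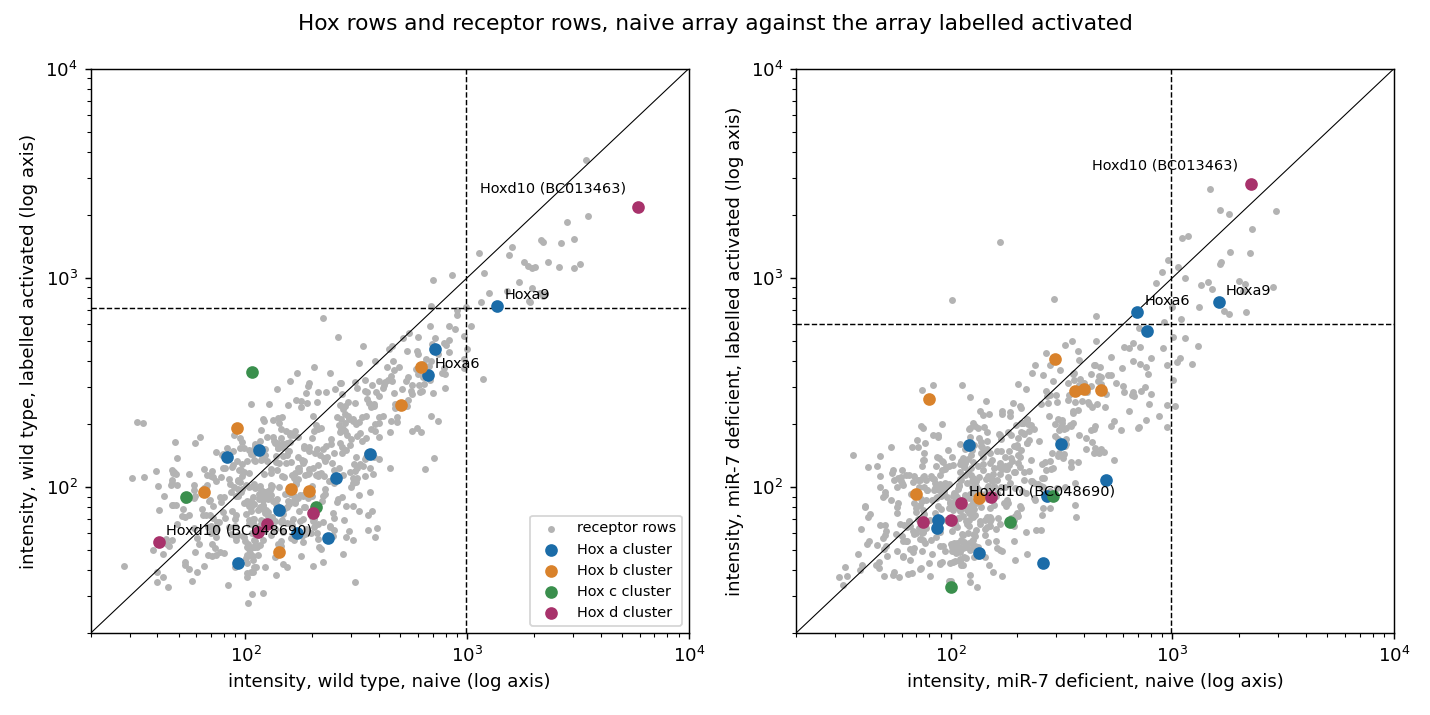
Intensity on the naive array (horizontal) against the array labelled activated (vertical), both on log axes, for wild type (left) and miR-7 deficient (right) samples; grey points are the 667 receptor rows, coloured points 26 Hox rows, dashed lines the floors and the solid line equality. Apart from the bright Hoxd10 row, most Hox rows lie within the cloud of receptor rows.

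Between the naive genotypes, Hoxd10 was the Hox gene 2-fold apart. Its bright row read 2258 in miR-7 deficient against 5933 in wild type samples, a log2 difference of -1.39, while Hoxa9 differed by 0.24. So of the 2 Hox genes above the floor on either array 1 was lower and 0 were higher, beside 0.809% of 3461 genes lower, 2.02% higher and 2.83% in either direction. The dim Hoxd10 row went the other way, at 112 against 40.6 (log2 difference of 1.46, both below the floor). The mean of both Hoxd10 rows on the log2 scale differed by 0.03, and it lay below both floors.

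Between the arrays labelled activated, 0 of the 3 Hox genes above the floor were 2-fold apart, beside 4.6% of 5723 genes (2.22% higher and 2.38% lower). Hoxd10 differed by 0.37 and Hoxa9 by 0.07 (miR-7 deficient minus wild type). Hoxa6 read 684 against 342, but 684 lies below the wild type floor of 720, so no bound can be given.

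Across labels, Hoxa9 was lower on the array labelled activated than on the naive one in both genotypes, with log2 differences of -0.90 for wild type and -1.08 for miR-7 deficient samples. Hoxd10 differed by -1.45 for wild type and by 0.31 for miR-7 deficient samples. In wild type Hoxd10 was thus the 1 of 2 Hox genes 2-fold apart, and it was lower, beside 8.81% of 5132 genes lower, 14.5% higher and 23.3% in either direction. In miR-7 deficient samples Hoxa9 was the 1 of 3, also lower, beside 14.8% of 5828 genes lower, 11.1% higher and 25.9% in either direction. Centring each comparison on its median took the Hoxa9 difference to -0.94, short of 2-fold. Both Hoxd10 differences past 2-fold rest on the wild type naive array, which the 2 comparisons share. The dim Hoxd10 row went the other way across labels, by 0.43 for wild type and -0.42 for miR-7 deficient samples, below every floor. Every activation difference holds for arrays whose markers go against their labels.

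Without a floor, Hox genes were lower on the arrays labelled activated, and so were receptor rows. The median log2 difference over 24 Hox genes was -0.91 for wild type and -0.46 for miR-7 deficient samples, with 18 of 24 lower in each. Over receptor rows it was -0.54 and -0.43, with 73.8% and 70.0% of rows lower, and over all genes -0.17 and -0.13. Between genotypes the Hox median was 0.09 for the naive arrays, with 14 of 24 higher, and 0.17 for the arrays labelled activated, with 16 of 24 higher, and the median over all genes 0.04 and -0.01.

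Hox genes, most of them on dim rows, varied widely between arrays. Without a floor 8 of 24 Hox genes (33.3%) were 2-fold apart between the naive genotypes, beside 16.7% of all genes and 20.8% of receptor rows, and 7 of 24 (29.2%) between the arrays labelled activated, beside 12.9% and 19.2%. Between arrays of different label the counts were 12 of 24 (50%) in wild type, beside 36.7% and 30.1%, and 8 of 24 (33.3%) in miR-7 deficient samples, beside 34.7% and 29.2%. Not all genes counted were dim. Hoxd10 is among the 8 of the naive genotypes and the 12 of wild type, and Hoxa9 among the 8 of miR-7 deficient samples. Both were above the floor on each array. Hoxa6, above the floor on 1 array, is among the 7. The Hox share was above that of receptor rows each time, which was not tested. Hoxc5, for example, moved by -2.37 between the arrays labelled activated (68.4 against 353) and Hoxb8 by 2.10 (411 against 95.9), on readings that do not reach the floor.

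**Figure D4:**
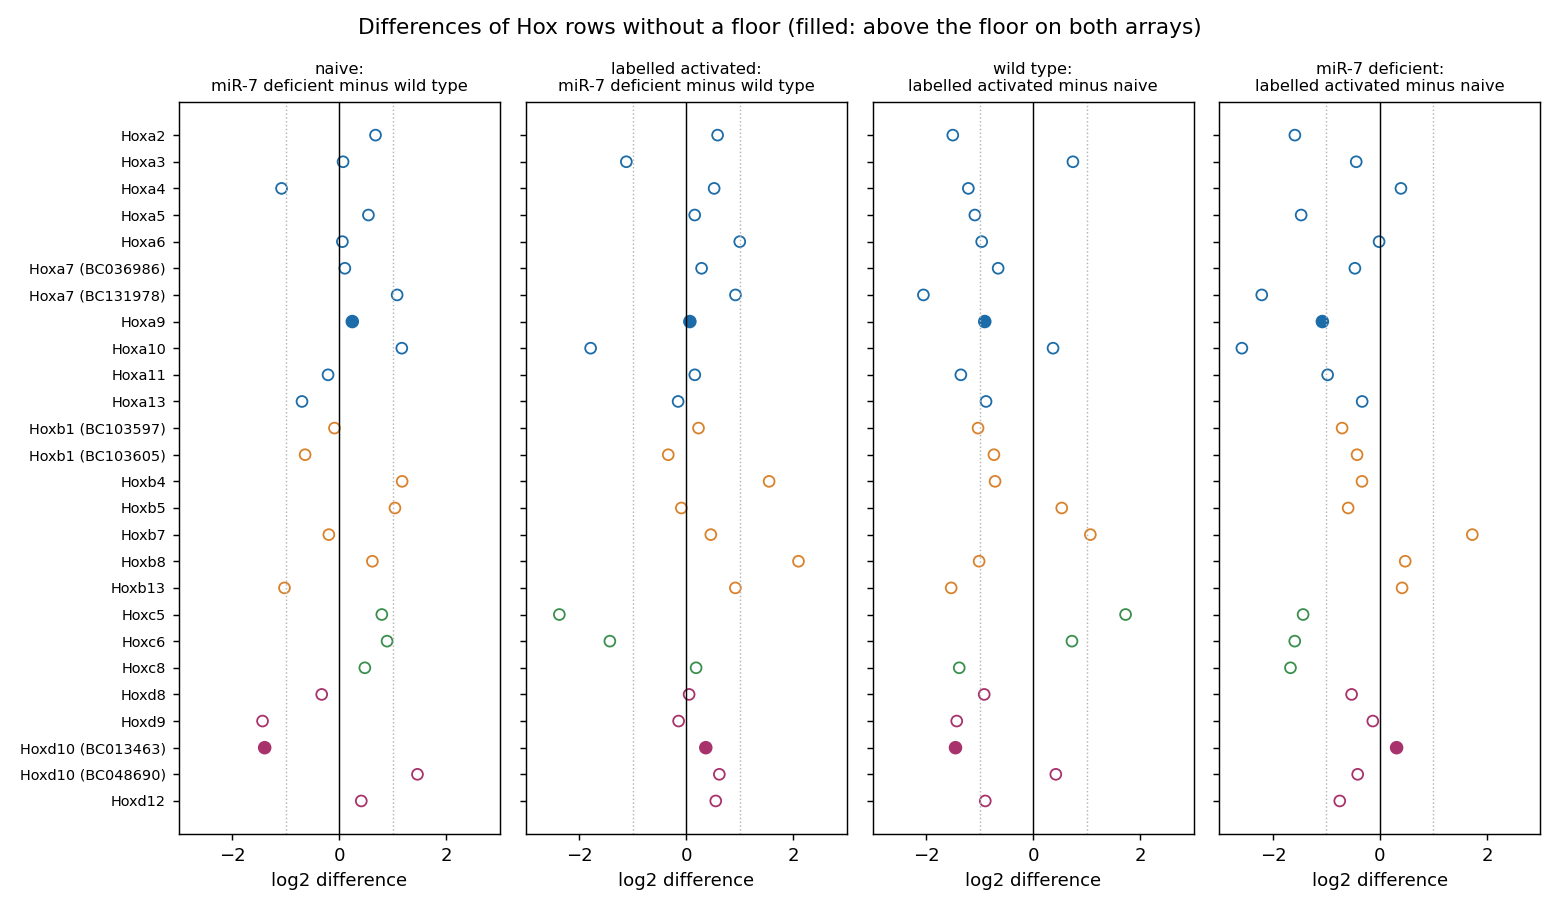
Log2 difference of 26 Hox rows without a floor in the 4 comparisons (horizontal), ordered by cluster and paralog group (vertical); filled points are above the floor on both arrays, open points are not, and dotted lines mark 2-fold. Filled points are Hoxa9 and the bright Hoxd10 row alone. The 2 Hoxd10 rows lie on opposite sides of 0 in all comparisons but that between the arrays labelled activated.

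Genes that work with Hox proteins were read from lists that use no value of the Hox rows. Of 9 DNA-binding partners (Pbx, Meis and Pknox) 0, 1, 2 and 3 stood above the floor in array order, beside 13.7%, 14.7%, 22.2% and 25.8% of all genes, so their counts rose with the arrays' own shares. Meis2, a partner also used in forebrain neurons, read 141, 79.0, 2378 and 1922, in array order. It was the 1 partner 2-fold apart, at least 2.42-fold higher on the wild type array labelled activated, and 0 were lower, beside 14.5% of genes higher and 8.81% lower in that comparison. Of 8 genes upstream of Hox expression, mostly transcription factors of the early embryo, 0 stood above the floor on any array.

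Of 17 Polycomb genes 3, 4, 4 and 5 stood above the floor in array order, on each array a somewhat larger share than over all genes. Phc1 and Phc2 did so on all 4 arrays. Phc1, a subunit of the complex that holds Hox clusters closed, read 2144, 1836, 844 and 931, and Phc2, its close relative, 1653, 1449, 807 and 1210, in the same order. In wild type samples these 2 were 2-fold lower on the array labelled activated (log2 differences of -1.35 and -1.03). There 0 Polycomb genes were higher, beside 8.81% of genes lower and 14.5% higher. In miR-7 deficient samples 0 were 2-fold apart, beside 14.8% of genes lower and 11.1% higher. Phc1 came just short of 2-fold there, at -0.98, and Phc2 differed by -0.26. Of 13 Trithorax and MLL complex genes 6, 6, 7 and 7 stood above the floor in array order, above the shares over all genes. Kmt2d, Men1, Dpy30 and Dot1l did so on all 4 arrays. Kmt2d, a histone methyltransferase, was the 1 of 13 members 2-fold apart, higher by 1.08 on the wild type array labelled activated. In that comparison 0 members were lower, beside 14.5% of all genes higher and 8.81% lower. Between genotypes 0 members of the partner, Polycomb and Trithorax lists were 2-fold apart under either label. The shares over all genes were also small, at 2.83% for the naive arrays and 4.6% for those labelled activated. Lists of this size cannot tell 0 from such shares.

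In the retinoic acid pathway, whose signal switches on Hox genes of low paralog number in the embryo, 13 genes were measured. In array order 2, 1, 4 and 4 of them stood above the floor, beside 13.7%, 14.7%, 22.2% and 25.8% of all genes. Rara, a retinoic acid receptor, read 3382, 2225, 1574 and 1354, in array order, and was lower by a log2 difference of -1.10 on the wild type array labelled activated. Aldh1a2, which makes retinoic acid, read 4038, 618, 5023 and 1924. The miR-7 deficient reading was the lower of each pair, at least 4.10-fold in naive samples and by a log2 difference of -1.38 between the arrays labelled activated. Among 10 homeobox genes of forebrain and midbrain, 0, 0, 1 and 2 stood above the floor in array order, below the shares over all genes. Lhx2 of the forebrain read 601, 530, 1823 and 4180, higher on both arrays labelled activated. The median Hox row and the median receptor row were both lower there. The Lhx2 log2 difference was 1.20 between the genotypes labelled activated and at least 2.09 between labels in miR-7 deficient samples. It was the 1 of 10 genes 2-fold apart in each of these, and 0 were lower. Over all genes 2.22% were higher and 2.38% lower in the first, and 11.1% and 14.8% in the second. Between labels in wild type 0 of the 10 were 2-fold apart, beside 23.3% of all genes. Of 6 homeobox genes that neighbour Hox clusters or belong to ParaHox groups, 1, 0, 1 and 1 stood above the floor, beside the same shares.

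The promoters of the 2 genes above the floor on all arrays are shown because they differ in sequence make-up. Each runs from 250 bases before to 50 after the gene's start (RefSeq, GRCm38.p6), and capitals mark CG dinucleotides. Hoxd10 lies at chr2:74691641-74691940 on the plus strand and Hoxa9 at chr6:52227321-52227620 on the minus strand.
Hoxd10: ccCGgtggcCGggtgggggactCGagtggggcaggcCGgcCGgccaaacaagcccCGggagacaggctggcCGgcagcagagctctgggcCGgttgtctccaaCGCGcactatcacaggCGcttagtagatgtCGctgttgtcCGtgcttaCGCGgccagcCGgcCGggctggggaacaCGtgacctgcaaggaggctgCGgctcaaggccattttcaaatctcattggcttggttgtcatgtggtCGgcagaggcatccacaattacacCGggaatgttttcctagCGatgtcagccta
Hoxa9: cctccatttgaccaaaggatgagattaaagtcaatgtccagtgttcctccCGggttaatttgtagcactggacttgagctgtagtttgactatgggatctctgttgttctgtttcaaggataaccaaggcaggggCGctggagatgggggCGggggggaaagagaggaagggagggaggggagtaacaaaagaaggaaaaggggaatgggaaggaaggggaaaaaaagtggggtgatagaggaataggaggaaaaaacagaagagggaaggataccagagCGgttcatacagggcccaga
The Hoxd10 window held 22 CG dinucleotides and the Hoxa9 window 4. Over 17 promoters of 16 matched Hox genes the median was 14, with 4 in Hoxa9 the lowest and 45 in Hoxa13 the highest, and over 32851 promoters of all genes it was 7. The motif TGATNNAT, searched on both strands as a site type of Hox and Pbx proteins, was found in 3 of the 17 Hox windows (Hoxa2, Hoxb1 and Hoxb8) and in 8.85% of all promoters. TATAAA, also searched on both strands, was found in 2 of the 17 (1 window of Hoxa10 and that of Hoxb8) and in 13.6% of all. In both of these Hox windows the matches lay only on the strand opposite to the gene. The windows of Hoxd10 and Hoxa9 held no match to TGATNNAT or TATAAA. A match describes letters and no binding.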

How the data were processed

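RNA of 4 mouse samples was read on NimbleGen arrays with Cy3. Growth and treatment fields of the labels concern cultured bacteria and were not used. The authors normalized the arrays with RMA, per the submitters' processing notes (version not given). Each deposited value is an intensity on a linear scale, which a file header calls log2 transformed. The authors' deposited tables also give a ratio (fold change) between arrays, of which none is quoted; their 283288 intensities matched the value table (relative tolerance 1e-06).

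Members were joined to the value table by row identifier. Gene symbols were updated by gene number (RefSeq, GRCm38.p6). Intensities under the floor were raised to it, which leaves a bound where 1 side was below it, and 0 where none is left. Genes with a log2 difference of at least 1 count as 2-fold apart, among those above the floor of either array. No test was run with 1 array per group. The rule named Hox genes above a floor, with 2 rows or 2-fold apart, and list members 2-fold apart or above the floor on all 4 arrays; other Hox genes are given to account for the rows. Some items that enter the counts are not reported here by name or in the figures. Members, lists and settings were chosen with earlier results of these data known. The counting was tested on simulated data. Alternatives were floors at the 99th and 75th percentiles, no floor, the mean of all rows, median centring, lowess removal (fraction 0.3) and a 1.5-fold threshold. Scripts ran on Python 3.11.15 with statsmodels 0.14.6, matplotlib 3.10.9, pandas 2.3.3 and numpy 2.4.6.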

Additional observations from a re-analysis of the deposited data

Results flagged for a closer look

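Hoxd10 differed in opposite directions under the same contrast, each side with 1 array, and this difference was not tested. The log2 difference of its bright row between genotypes was -1.39 for the naive arrays and 0.37 for the arrays labelled activated. From naive to labelled activated it was -1.45 for wild type and 0.31 for miR-7 deficient samples. Both pairs are the same 4 readings, and the difference of differences is 1.76 in each.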

How the results depend on the processing

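No paired analysis was possible because each group has 1 array and no comparison has a test. The count of Hox genes above the floor was 1 on each array with the floor at the 99th percentile, where Hoxd10 alone was left. At the 75th percentile it was 6, 9, 6 and 8, in array order. The share of all genes above either of these floors is not given here, so these counts have no background beside them. With the mean of all rows it was 1 on the first 3 of these, since the mean of both Hoxd10 rows lay below the floor. At the 75th percentile 1 of 3 genes with 2 rows had both on 1 side of the floor, on each array but the miR-7 deficient naive one. The genes above that floor on any array were 1 of 4 anterior, 7 of 12 central and 3 of 8 posterior. At the 99th percentile they were 0 central and 1 posterior. Hox genes 2-fold apart between the naive arrays were 0 with the mean of rows and 8 without a floor. Between the arrays labelled activated they were 1 at the 75th percentile and 7 without a floor. In wild type activation they were 0 with the mean of rows, 12 without a floor and 2 at 1.5-fold. In miR-7 deficient activation they were 0 at the 99th percentile, 0 after centring and 8 without a floor. The Hoxd10 difference of the naive arrays ranged from -1.57 (lowess removed) to 0 (mean of rows, below both floors). The Hox medians without a floor ranged from 0.05 to 0.16 between the naive arrays, 0.15 to 0.18 between those labelled activated, -0.91 to -0.74 in wild type and -0.55 to -0.32 in miR-7 deficient activation. A position on these arrays near the floor is limited by signal over background.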
